A study of Homo sapiens with 6 samples.

Results

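Translation initiation factor genes were taken from the deposited count table as the protein-coding genes whose symbol starts with EIF and a digit from 1 to 6, leaving out the interferon-induced kinase EIF2AK2. This gave 55 of the 39323 genes in the table. The edgeR filter on low counts kept 51 of them among the 16869 genes tested. The other four, EIF1AY, EIF2S3B, EIF4E1B and EIF4EBP3, had 0 to 4 reads in each library and were not tested. A further 50 genes with such symbols were not protein-coding and were not used.

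The factors were measured in MDA-MB-231, a line of human breast cancer cells that lacks hormone receptors and has a mesenchymal form. The cells were transfected through a lipid reagent with an siRNA duplex against SF3B6 (siSF3B6) or with a non-targeting duplex (siNC), and polyadenylated RNA was sequenced from 3 libraries per group. SF3B6 is a small protein of the U2 snRNP, which marks the branch point of introns, and the design text asks what it does in these cells. Each group is a single siRNA duplex in a single line, and the control cells were transfected too. The design text calls the replicates biological, but no label says that they came from separate cultures, so the p-values speak only of the spread among these 6 libraries, which may be technical.

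In the initiation of translation, eIF2 with bound GTP carries the initiator tRNA to the small ribosomal subunit, where eIF1, eIF1A and eIF3 hold it ready to scan. The complex eIF4F, made of the cap-binding protein eIF4E, the helicase eIF4A and the scaffold eIF4G, brings the mRNA. After the start codon is found, eIF5 and eIF5B let the large subunit join, and eIF2B exchanges GDP for GTP on the released eIF2. Stress kinases phosphorylate the alpha subunit of eIF2, which then blocks eIF2B. Cap binding by eIF4E is a well-known control point in breast cancer cells, where it favours mRNAs of growth genes.

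The libraries held 28504091 to 38546037 reads in genes. SF3B6 itself stood at 25.6% of its siNC level in siSF3B6 (log2 fold change -1.96). Mitochondrially encoded genes took 3.38%, 3.93% and 9.07% of the reads of siNC replicates 1, 2 and 3, and 10.6% to 11.8% in siSF3B6. By this share siNC replicate 3 was the closest of the controls to siSF3B6. Genes with at least 1 read numbered 30930 and 32041 in siNC replicates 1 and 2, 24579 in siNC replicate 3 and 24516 to 25566 in siSF3B6. Replicates 1 and 2 of each group were closer to each other (mean chi-square per gene 3.77 in siNC and 2.38 in siSF3B6) than either was to replicate 3 (18.3 to 75.1). The line's markers VIM (472 to 547 FPKM) and CD44 (43.1 to 49.0) were abundant, and ESR1 and PGR reached at most 0.01 and 0.02 FPKM. The other four markers taken to be low in this line were called higher in siSF3B6: EPCAM at 3.51 to 8.15 FPKM, GATA3 at 2.23 to 3.63, CDH1 at 0.57 to 1.02 and ERBB3 at 0.36 to 0.68. Of the markers expected in the line, ANXA1 was called higher too (log2 fold change 0.56). VIM (0.08), CD44 (0.11), EGFR (0.11) and AXL (0.15) were not called. Of markers of other cell types, CDH5, ALB, DCN and PTPRC reached at most 0.13 FPKM and PECAM1 and COL1A1 lay between 0.45 and 1.07. The part of these differences between libraries in the results on initiation factors was not tested.

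Of the 51 factor genes tested, 17 passed an adjusted p of 0.05 in edgeR's quasi-likelihood test and are here called changed: 8 were higher and 9 lower in siSF3B6. That is 33.3% of them, against 40.8% of all genes tested, 45.7% of the protein-coding genes and 50.2% of the protein-coding genes in the same range of read counts. By direction, 20.8% of all genes were called higher and 20% lower. The factor genes called higher were EIF5A2, EIF4A2, EIF1B, EIF4E, EIF1AD, EIF3E, EIF3F and EIF2S1, and those called lower were EIF4E3, EIF2D, EIF3K, EIF2S3, EIF2B5, EIF2AK3, EIF2B3, EIF3J and EIF2S2. Most changes were small. The median absolute log2 fold change was 0.17 over the 51 genes and 0.29 over all genes, and EIF5A2 and EIF4E3 alone were called with a change of at least 1.5-fold, which 15.2% of all genes reached. The median log2 fold change of the 51 was 0.03, so the group as a whole lay close to the median of all genes. Scaled by library size only, which moves the median of all genes to -0.10, 4 factor genes were called higher and 11 lower. In bulk RNA of this kind, fewer cells with a transcript and less of it per cell cannot be told apart.

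**Figure D1:**
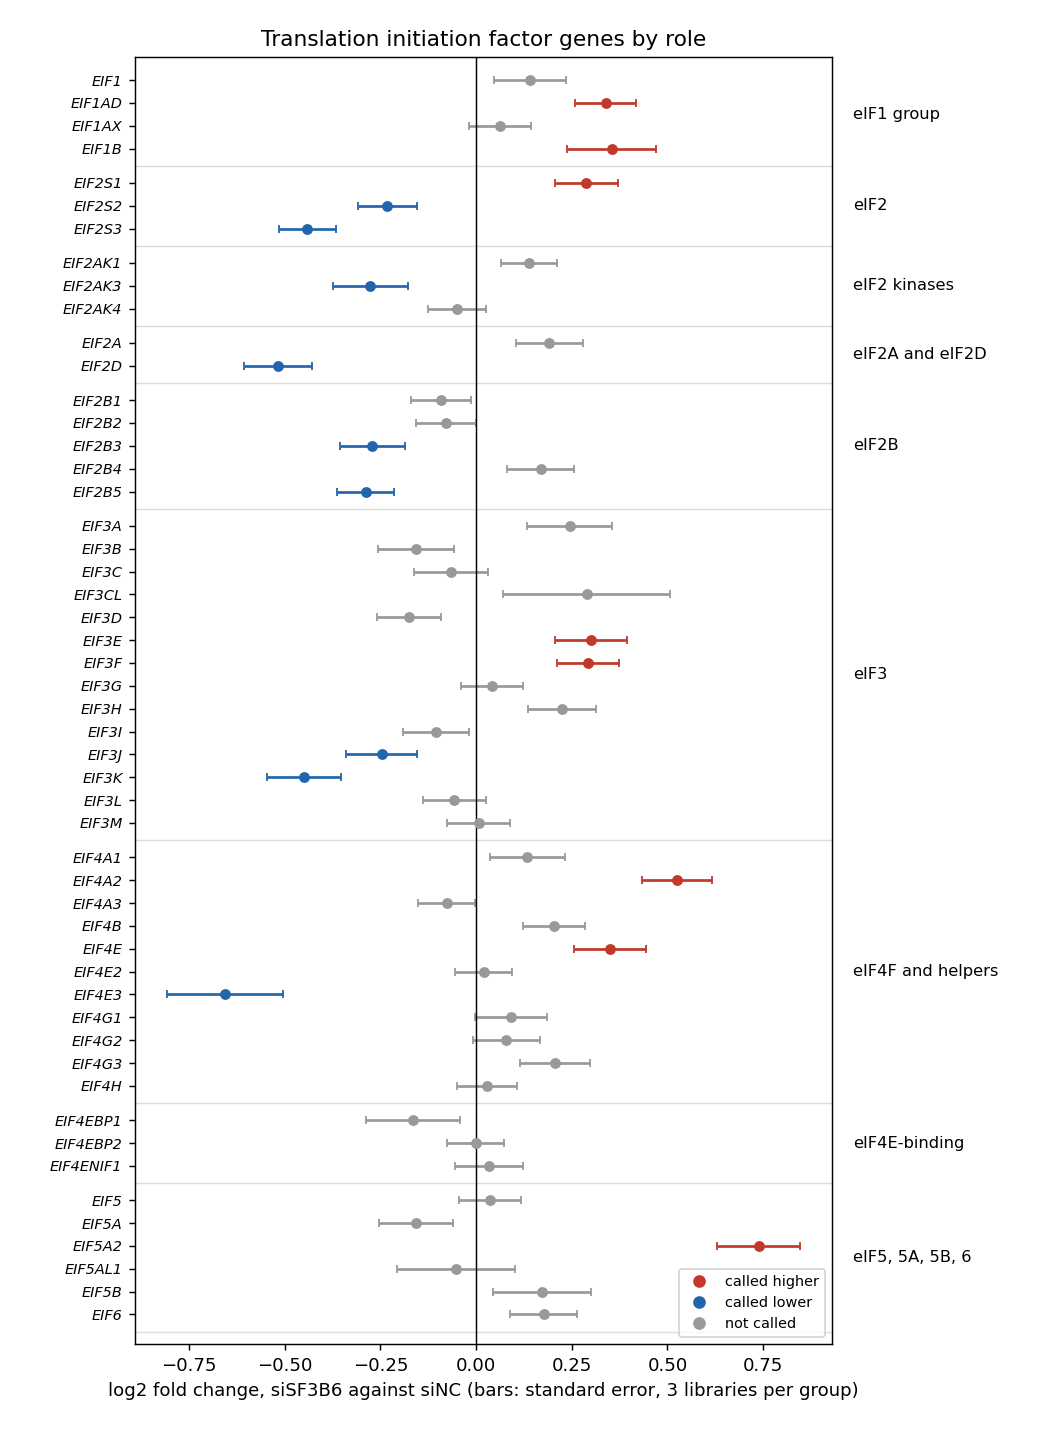
Log2 fold change of the 51 tested initiation factor genes, siSF3B6 against siNC, with the standard error as bars (3 libraries per group), grouped by role and coloured by whether the gene was called higher, lower or neither. The values run from -0.66 for EIF4E3 to 0.74 for EIF5A2, and called genes of both directions lie within eIF2, eIF3 and the eIF4 group.

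Between groups, the libraries did not overlap for 23 of the 51 genes (13 higher and 10 lower in siSF3B6), which is 45.1% against 52.1% of all genes (26.3% higher and 25.9% lower). All 17 called genes were among them. The other six were EIF2AK1, EIF2B4, EIF3H, EIF4B and EIF4G3, which lay higher, and EIF2B1, which lay lower, and none of these passed the test. The position of single libraries differed by direction. For 7 of the 8 genes called higher, siNC replicate 3 was the siNC library nearest to siSF3B6, and for 7 of them siSF3B6 replicate 3 was the farthest from siNC. For the 9 genes called lower, each siNC library was the nearest for 3 genes. The plot of called genes by library shows the shift of the triangles of both groups to the right in its upper part.

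**Figure D2:**
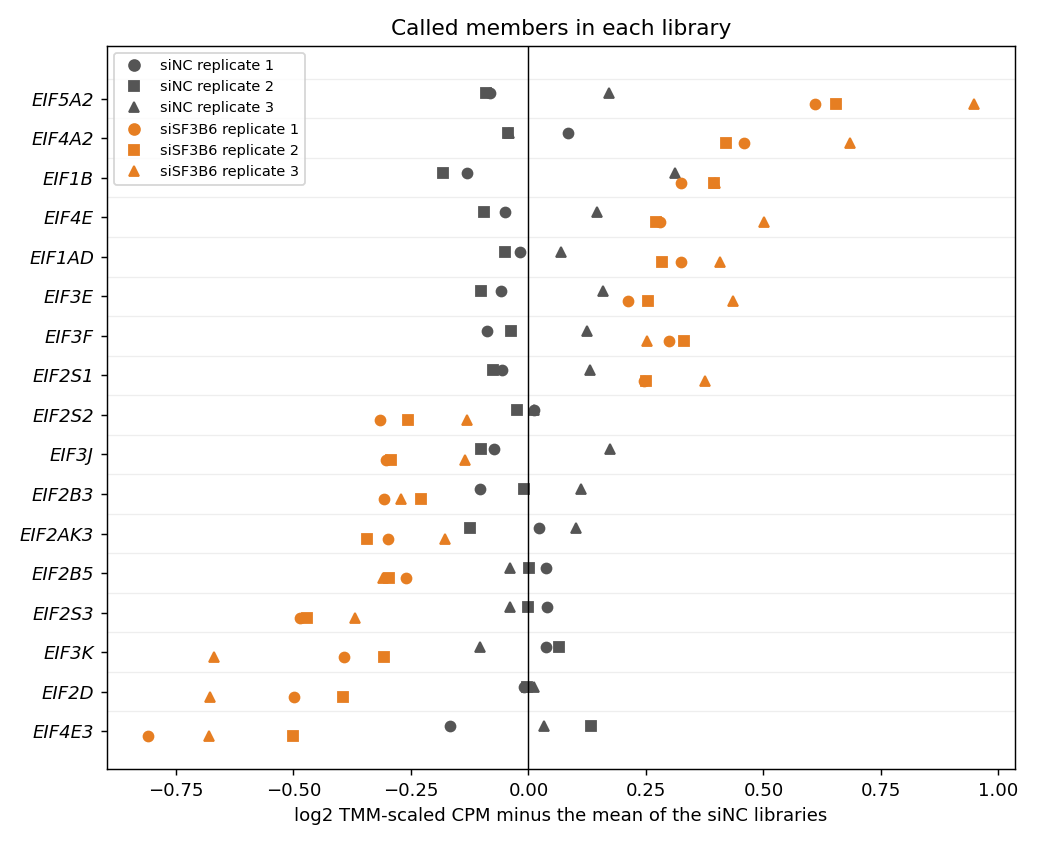
Level of the 17 called genes in each library, as log2 TMM-scaled CPM minus the mean of the siNC libraries, with grey symbols for siNC, orange for siSF3B6 and a symbol shape for each replicate number. The groups do not overlap for any of these genes, and EIF1B has the narrowest gap, between siNC replicate 3 and siSF3B6 replicate 1.

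Called genes EIF5A2, EIF4A2, EIF2D and EIF2S3 kept their call and direction in all 21 alternative analyses, and their promoters are shown here because these are the factors whose change did not hinge on a library or a setting. The windows hold the 250 bases before the start of each gene in RefSeq (GRCh38.p14), written 5′ to 3′ on the strand of the gene: EIF5A2 at chr3:170908638-170908887 (minus strand), EIF4A2 at chr3:186783327-186783576 (plus), EIF2D at chr1:206612466-206612715 (minus) and EIF2S3 at chrX:24054706-24054955 (plus). Capitals mark the motifs that were searched on both strands: the E-box CACGTG, the ETS motif CCGGAAG, the CCAAT box CCAAT, the TATA box TATAAA and the GC box GGGCGG.
EIF5A2: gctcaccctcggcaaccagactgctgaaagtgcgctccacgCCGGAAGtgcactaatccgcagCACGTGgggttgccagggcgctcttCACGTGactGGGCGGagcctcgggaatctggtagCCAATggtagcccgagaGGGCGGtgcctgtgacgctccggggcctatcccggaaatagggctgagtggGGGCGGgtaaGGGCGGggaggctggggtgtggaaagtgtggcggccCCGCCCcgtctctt
EIF4A2: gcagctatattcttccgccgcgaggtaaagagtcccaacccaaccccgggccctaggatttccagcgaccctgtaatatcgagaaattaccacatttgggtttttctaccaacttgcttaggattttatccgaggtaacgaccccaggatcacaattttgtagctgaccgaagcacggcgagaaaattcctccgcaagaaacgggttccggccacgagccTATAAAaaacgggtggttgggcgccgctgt
EIF2D: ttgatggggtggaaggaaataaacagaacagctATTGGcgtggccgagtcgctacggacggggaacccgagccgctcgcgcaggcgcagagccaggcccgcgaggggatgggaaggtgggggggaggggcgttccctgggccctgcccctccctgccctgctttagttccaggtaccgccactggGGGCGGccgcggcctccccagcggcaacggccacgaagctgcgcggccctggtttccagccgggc
EIF2S3: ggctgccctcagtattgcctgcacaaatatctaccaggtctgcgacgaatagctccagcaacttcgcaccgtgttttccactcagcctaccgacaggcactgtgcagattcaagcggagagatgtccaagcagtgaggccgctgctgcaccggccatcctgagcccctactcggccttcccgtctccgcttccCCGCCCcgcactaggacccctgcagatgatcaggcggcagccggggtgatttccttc

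The window of EIF5A2 held 2 E-boxes, 1 ETS motif, 1 CCAAT box and 5 GC boxes, with none overlapping another. That of EIF4A2 held a TATA box 30 bases before the start and none of the other motifs. EIF2D had 1 CCAAT box and 1 GC box, and EIF2S3 had 1 GC box. A promoter was found for 42 of the 51 tested factor genes. The E-box was in 10 of these 42 (EIF1B, EIF2B3, EIF3F, EIF3K, EIF4A3, EIF4B, EIF4E, EIF4G1, EIF4H and EIF5A2), or 23.8%, against 6.34% of 35116 promoters of the same length. The ETS motif was in 8 of 42 against 8.52%, the CCAAT box in 17 against 32.0%, the GC box in 27 against 42.6% and the TATA box in 1 against 10.7%. The 35116 promoters were not limited to the genes tested or to a single promoter per gene, so the sets are unlike. The 10 genes with an E-box included genes called in both directions and genes not called. The windows follow the starts in RefSeq. GENCODE 29 places the start of EIF4A2 (chr3:186783205) before its window and those of EIF2S3 (chrX:24054716) and EIF5A2 (chr3:170908693) within theirs, so these windows lie wholly or partly inside the GENCODE genes. A match of letters is a description of the window and not a binding site.

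Among the genes of eIF1 and its relatives, which help the small subunit to find the start codon, EIF1B and EIF1AD rose and EIF1 and EIF1AX did not pass the test. The median log2 fold change of these 4 was 0.24. EIF1B, the paralogue of EIF1, had 33.6, 32.4 and 45.6 TMM-scaled CPM (reads scaled to library size) in siNC replicates 1 to 3 and 46.0, 48.3 and 48.4 in the siSF3B6 replicates. The siNC library of replicate 3 reached almost to the siSF3B6 values. Its log2 fold change was 0.35 (adjusted p = 0.0254, SE 0.116), and the call was lost without siNC replicate 1 or 2 or siSF3B6 replicate 2 or 3 (adjusted p = 0.0577 to 0.133). It was 0.53 without siNC replicate 3.

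EIF1AD, named for a domain shared with eIF1A, had 46.0, 44.9 and 48.8 CPM in siNC and 58.2, 56.7 and 61.8 in siSF3B6. The groups were well apart, with a log2 fold change of 0.34 (adjusted p = 0.00421, SE 0.08). EIF1, the most abundant factor gene per length after EIF5A, had 571, 598 and 715 CPM in siNC and 685, 704 and 686 in siSF3B6. The siSF3B6 libraries lay above siNC replicates 1 and 2 and below siNC replicate 3. The log2 fold change of EIF1 was 0.14 (adjusted p = 0.257), and 0.25 (adjusted p = 0.0126) without siNC replicate 3. EIF1AX, the X-linked gene of eIF1A, had 0.06 (adjusted p = 0.565).

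The 3 subunits of eIF2 did not move together: the alpha subunit gene rose and the beta and gamma subunit genes fell. EIF2S1, which encodes the alpha subunit that stress kinases phosphorylate, had 171, 169 and 195 CPM in siNC and 211, 211 and 231 in siSF3B6. Every siSF3B6 library lay above every siNC library, with a log2 fold change of 0.29 (adjusted p = 0.0135, SE 0.083). EIF2S2, of the beta subunit, had 305, 297 and 305 CPM in siNC and 243, 253 and 276 in siSF3B6, a log2 fold change of -0.23 (adjusted p = 0.0291, SE 0.0781). Here siSF3B6 replicate 3 was the nearest to the siNC libraries. EIF2S3, of the gamma subunit that binds GTP and the initiator tRNA, had 168, 164 and 159.6 CPM in siNC and 117, 118 and 127 in siSF3B6.

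Both groups of EIF2S3 were tight and far apart, with a log2 fold change of -0.44 (adjusted p = 0.000457, SE 0.0746). EIF2S3 lies at chrX:24054716-24077971 (GRCh38, plus strand), and 15.1% of its 75-base words also occur in the related gene EIF2S3B, which had almost no reads. Of the words of EIF2S2, 18.5% also occur in other genes, mostly a pseudogene. The calls of EIF2S1 (without siNC replicate 1 or 2, adjusted p = 0.0755 and 0.0824) and EIF2S2 (without siNC or siSF3B6 replicate 1 or 2, adjusted p = 0.0746 to 0.145) were lost when a library was left out. The rise of EIF2S1 was 0.10 (adjusted p = 0.157) with an offset for GC and length and 0.19 (0.0835) with scaling by library size only, so its call, and with it the opposite calls within eIF2, depended on these settings. The summed level of the 3 subunits was 630 to 659 CPM in siNC and 571 to 634 in siSF3B6.

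Of the 3 tested genes of kinases that phosphorylate eIF2 alpha, EIF2AK3 fell and EIF2AK1 and EIF2AK4 did not pass the test. EIF2AK2 was left out of the gene set, so its change is not given here. EIF2AK3 encodes PERK, the kinase of the unfolded protein response, and had 17.2, 15.6 and 18.2 CPM in siNC and 13.8, 13.4 and 15.01 in siSF3B6. The groups lay close together without overlap, with a log2 fold change of -0.28 (adjusted p = 0.0377, SE 0.0985). The call was lost without siNC replicate 1 or 3 or siSF3B6 replicate 1 or 2 (adjusted p = 0.0982 to 0.138), and in DESeq2 (adjusted p = 0.0794). Antisense genes overlap 15.1% of its exonic bases. EIF2AK1, the heme-regulated kinase HRI, had 134, 134 and 144 CPM in siNC and 152, 152 and 149 in siSF3B6, with a log2 fold change of 0.14 (adjusted p = 0.15). EIF2AK4, the amino acid sensor GCN2, had -0.05 (adjusted p = 0.633).

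EIF2D, which can bring tRNA to the ribosome without GTP and helps to recycle ribosomes, fell more than any other factor gene of at least 5 CPM. It had 51.3, 51.4 and 52.0 CPM in siNC and 36.5, 39.2 and 32.2 in siSF3B6. The siNC libraries were nearly equal and the siSF3B6 libraries spread below them, with a log2 fold change of -0.52 (adjusted p = 0.000483, SE 0.0884), or 69.8% of the siNC level. The gene spans chr1:206571292-206612463 (GRCh38, minus strand), and no annotated exon of another gene overlaps its own. EIF2A, a separate tRNA carrier that is not part of eIF2, had 70.5, 67.6 and 81.5 CPM in siNC and 81.9, 80.6 and 88.3 in siSF3B6. Its groups overlapped through siNC replicate 3, and the log2 fold change was 0.19 (adjusted p = 0.098), or 0.28 (adjusted p = 0.013) without that library.

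In eIF2B, the exchange factor of eIF2, EIF2B5 and EIF2B3 fell and the other three subunit genes did not pass the test. EIF2B5, of the catalytic epsilon subunit, had 97.7, 95.2 and 92.6 CPM in siNC and 79.4, 77.4 and 76.8 in siSF3B6. Both groups were tight, and the log2 fold change was -0.29 (adjusted p = 0.00672, SE 0.0736). EIF2B3, of the gamma subunit, which pairs with epsilon, had a log2 fold change of -0.27 (adjusted p = 0.0198, SE 0.0841), from 50.7 ± 3.82 CPM in siNC to 42.0 ± 1.14 in siSF3B6 (SD, n = 3 each). Its call was lost without siNC replicate 2 or 3 or siSF3B6 replicate 1 (adjusted p = 0.0563 to 0.0807). The genes of the regulatory subunits alpha, beta and delta differed in sign: EIF2B1 had -0.09 (adjusted p = 0.38), EIF2B2 -0.08 (0.45) and EIF2B4 0.17 (0.137). EIF2B1, the most abundant of the 5 per length, had 70.9, 72.2 and 79.6 CPM in siNC and 70.7, 70.1 and 68.3 in siSF3B6, almost level between replicates 1 of the groups. Antisense genes overlap 15.6% of the exonic bases of EIF2B1 and 23.6% of those of EIF2B2. The summed level of eIF2B was 307 to 324 CPM in siNC and 279 to 288 in siSF3B6.

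eIF3, the largest initiation factor and the platform on which the small subunit, eIF4G and mRNA meet, had 14 tested genes. EIF3E and EIF3F rose, EIF3K and EIF3J fell, and the other ten did not pass the test, with a median log2 fold change of -0.02 over the 14. EIF3K, a small peripheral subunit, had 184, 188 and 167 CPM in siNC and 137, 145 and 113 in siSF3B6. The largest gap was at replicate 3 of siSF3B6, and the log2 fold change was -0.45 (adjusted p = 0.00224, SE 0.0962). EIF3L, the usual partner of EIF3K at the edge of the complex, had -0.06 (adjusted p = 0.614), although 42.8% of its 75-base words also occur in an overlapping gene of the same strand.

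EIF3E, which was identified as INT6 at a mouse mammary tumour virus insertion site, had 332, 323 and 387 CPM in siNC and 401, 413 and 468 in siSF3B6. Replicate 3 was the highest library of each group. The log2 fold change of EIF3E was 0.30 (adjusted p = 0.0209, SE 0.094), and the call was lost without siNC replicate 1 or 2 or siSF3B6 replicate 3 (adjusted p = 0.0593 to 0.114). EIF3F, a subunit with an MPN domain, had 190.2, 197 and 220.2 CPM in siNC and 249, 254 and 241 in siSF3B6, a log2 fold change of 0.29 (adjusted p = 0.0102, SE 0.0802). Its siSF3B6 libraries were all within a narrow range above siNC, yet the call was lost without siNC replicate 1 or 2 (adjusted p = 0.0742 and 0.0587). EIF3J, a loosely bound subunit near the decoding centre, fell from 76.3 ± 8.21 CPM to 64.3 ± 4.28 (SD, n = 3 each), a log2 fold change of -0.25 (adjusted p = 0.0459, SE 0.0923). It was the call closest to the threshold, lost without siNC replicate 1 or 3 or siSF3B6 replicate 1 or 2 (adjusted p = 0.0641 to 0.16), and the log2 fold change shrank to -0.15 without siNC replicate 3.

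Of the other eIF3 genes, EIF3H (0.22, adjusted p = 0.0571), EIF3A (0.25, 0.0931) and EIF3CL (0.29, 0.311) had positive log2 fold changes and EIF3D (-0.17, 0.112), EIF3B (-0.16, 0.228) and EIF3I (-0.10, 0.349) negative ones. EIF3C (-0.07), EIF3G (0.04) and EIF3M (0.01) lay close to 0. EIF3H, which pairs with EIF3F, lay higher in every siSF3B6 library (302, 307 and 303 CPM against 244, 242 and 295) and passed the test without siNC replicate 3 (adjusted p = 0.0023), in DESeq2 (0.0409) and in limma-voom (0.0445). Without siNC replicate 3, EIF3B (-0.27, adjusted p = 0.0088) and EIF3D (-0.24, 0.0165) passed as well, and EIF3A passed without siSF3B6 replicate 2 (0.33, 0.0414). EIF3A, the scaffold of the complex, had 215 to 249 CPM in 5 libraries and 332 in siSF3B6 replicate 3. EIF3C and EIF3CL are near-identical copies that share 49.3% and 97.9% of their 75-base words with each other's gene, so their levels of 12.4 and 2.68 CPM and their changes are uncertain. EIF3G, the eIF3 gene of highest FPKM, had 193, 202 and 195 CPM in siNC and 205, 216 and 186 in siSF3B6, with overlapping groups.

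The eIF4 genes, those of cap binding, unwinding and their control, gave 3 calls in 14 tested: EIF4A2 and EIF4E rose and EIF4E3 fell. EIF4A2, a paralogue of the helicase EIF4A1 that also works with the CCR4-NOT complex, had 365, 335 and 335 CPM in siNC and 474, 461 and 554 in siSF3B6. All siSF3B6 libraries lay well above siNC, and the log2 fold change was 0.52 (adjusted p = 0.000513, SE 0.0904), a 1.44-fold rise. It lies at chr3:186783205-186789900 (GRCh38, plus strand), and 5 small nucleolar RNA genes sit in its introns, which is the largest number among the factor genes. EIF4A1 had 57.0, 59.3 and 71.3 CPM in siNC and 71.2, 71.7 and 63.0 in siSF3B6. Its groups overlapped, and every 75-base word of it also occurs in a readthrough gene or another overlapping gene, so reads of EIF4A1 may have been counted elsewhere and its log2 fold change of 0.13 (adjusted p = 0.291) is uncertain. Without siNC replicate 3 it was 0.24 (adjusted p = 0.0361). EIF4A3, the helicase of the exon junction complex, had -0.08 (adjusted p = 0.431).

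EIF4E, the cap-binding protein of eIF4F, had 56.7, 55.0 and 65.0 CPM in siNC and 71.3, 70.9 and 83.1 in siSF3B6. The groups did not overlap, with a log2 fold change of 0.35 (adjusted p = 0.00865, SE 0.0932). The call was lost without siNC replicate 2 (adjusted p = 0.0551). EIF4E2, a cap-binding relative that represses translation, had 74.8, 71.4 and 71.6 CPM in siNC and 73.4, 75.05 and 72.3 in siSF3B6, a log2 fold change of 0.02 (adjusted p = 0.858). EIF4E3, the least abundant relative, had 4.20, 5.17 and 4.82 CPM in siNC and 2.69, 3.33 and 2.94 in siSF3B6. It fell to 63.4% of its siNC level, with a log2 fold change of -0.66 (adjusted p = 0.0036, SE 0.151), the largest fall of the 51 genes. EIF4E3 was under the level of 5 CPM set for named genes, and it was singled out after its values were seen.

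Scaffold and helper genes of eIF4F did not pass the test. EIF4G1, the main scaffold, had 724, 704 and 589 CPM in siNC and 744, 721 and 684 in siSF3B6, a log2 fold change of 0.09 (adjusted p = 0.467). EIF4G3, its paralogue, had 71.4, 64.6 and 71.9 CPM against 75.5, 74.0 and 90.4, with no overlap and a log2 fold change of 0.21 (adjusted p = 0.0893). EIF4G2, also called DAP5, which lacks the site for eIF4E, had 708, 675 and 701 CPM against 705, 691 and 804, a log2 fold change of 0.08 (adjusted p = 0.5). For EIF4G1 and EIF4G2 the libraries of the groups overlapped. EIF4B, which stimulates the helicase, had 0.20 (adjusted p = 0.057), passing in DESeq2 (0.0304) and in limma-voom (0.0482), and EIF4H, a related helper, had 0.03 (adjusted p = 0.8).

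None of the 3 genes of eIF4E-binding proteins passed edgeR's test, at an adjusted or an unadjusted p of 0.05, or any of the 21 alternatives. EIF4EBP1, the repressor that mTOR phosphorylates, had 71.0, 74.2 and 83.7 CPM in siNC and 76.0, 75.3 and 52.9 in siSF3B6. A single library, siSF3B6 replicate 3, lay below all others, and the log2 fold change was -0.16 (adjusted p = 0.306, SE 0.123). EIF4EBP2 had -0.0015 (adjusted p = 0.99), and EIF4ENIF1, which shuttles eIF4E to the nucleus, had 0.03 (adjusted p = 0.79).

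Among the factors of subunit joining and of peptide bond formation, EIF5A2 rose and the other five genes did not pass the test. EIF5A2 encodes a second form of eIF5A, a protein with the modified lysine hypusine that relieves stalled ribosomes, and the gene is known for amplification in ovarian cancer. It had 25.3, 25.1 and 30.1 CPM in siNC and 40.7, 42.0 and 51.5 in siSF3B6. The groups were clearly apart, with replicate 3 the highest of each, and the log2 fold change of 0.74 (adjusted p = 0.000169, SE 0.109) was the largest rise of the 51 genes, 1.67-fold. The gene lies at chr3:170888415-170908693 (GRCh38, minus strand) and shares no 75-base word with another gene. EIF5A, the main form, had 823, 827 and 784 CPM in siNC and 769.6, 786 and 627 in siSF3B6, with a log2 fold change of -0.16 (adjusted p = 0.216, SE 0.0971). Its lowest library was siSF3B6 replicate 3, and the groups overlapped because siSF3B6 replicate 2 lay just above siNC replicate 3. EIF5AL1, an intronless copy that holds 18% of the words of EIF5A, had -0.05 (adjusted p = 0.811). EIF5 (0.04, adjusted p = 0.756), which triggers GTP hydrolysis on eIF2, and EIF5B (0.17, 0.302), which joins the subunits, did not pass the test. EIF6, which keeps the large subunit from joining early, had 0.18 (adjusted p = 0.125), and 0.25 (0.0105) without siSF3B6 replicate 3.

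Ratios of related factors in each library, taken from FPKM and so per length, showed the shifts within pairs. The ratio of EIF5A2 to EIF5A was 0.0149, 0.0147 and 0.0186 in siNC and 0.0257, 0.0259 and 0.0398 in siSF3B6. It rose 1.87-fold in the mean of the logs (log2 difference 0.90), with no overlap. The ratio of EIF4A2 to EIF4A1 was 5.44, 4.79 and 3.99 in siNC and 5.64, 5.46 and 7.46 in siSF3B6, a log2 difference of 0.38. Its groups barely missed each other, the difference was 0.24 without siSF3B6 replicate 3, and the count of EIF4A1 is uncertain. The ratio of EIF4E2 to EIF4E had a log2 difference of -0.33 and that of EIF4EBP1 to EIF4E of -0.53, both without overlap. The latter was 7.06, 7.62 and 7.27 in siNC and 6.02, 5.998 and 3.60 in siSF3B6, and siSF3B6 replicate 3 stood far below the others. Without siSF3B6 replicate 3 the difference was -0.28. The ratio of EIF4G3 to EIF4G1 overlapped between groups (0.10, exact two-sided permutation p = 0.5) and turned to -0.02 without siSF3B6 replicate 3. For the other four pairs the exact two-sided permutation test gave p = 0.1, the smallest that 3 against 3 allows, or 0.125 after Benjamini-Hochberg adjustment over the 5 pairs, so none could pass 0.05.

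**Figure D3:**
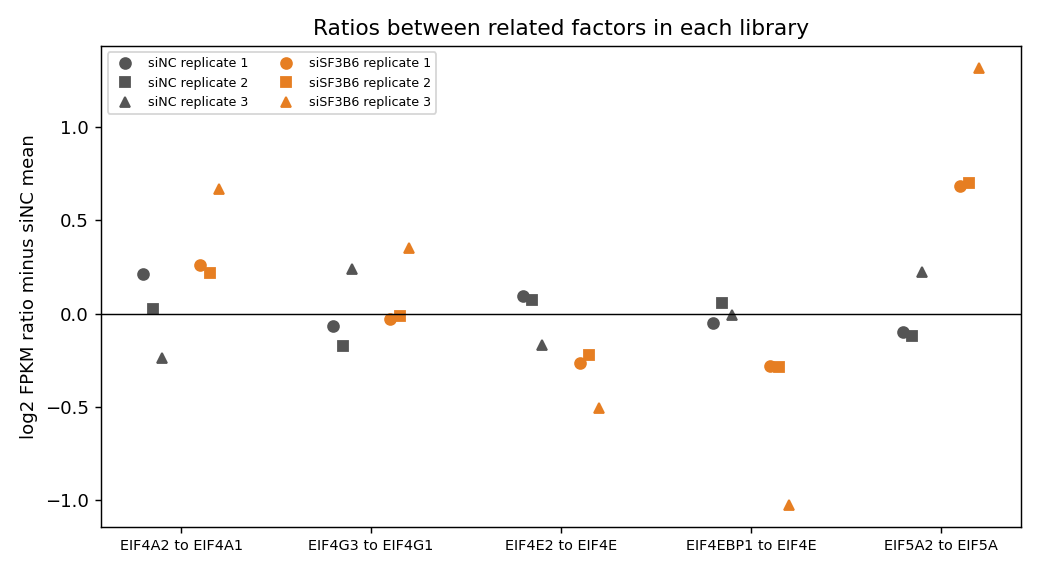
Log2 ratio of FPKM for 5 pairs of related factors in each library, minus the mean of the siNC libraries, with grey symbols for siNC, orange for siSF3B6 and a shape for each replicate number. EIF5A2 to EIF5A shows the largest shift (0.90), and siSF3B6 replicate 3 is the library farthest from siNC in all pairs.

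Levels per length spanned a wide range, from a mean of 241 FPKM for EIF5A and 153 for EIF1 to 0.632 for EIF2AK3 and 0.302 for EIF4E3. The next most abundant after EIF1 were EIF6 (96.9 FPKM), EIF2S2 (92.1), EIF4G2 (70.7), EIF4EBP1 (69.1), EIF4G1 (66.6) and EIF4H (63.1). EIF6 had 87.8 to 108 FPKM over the 6 libraries and EIF2S2 78.4 to 103, so their order was within their spread. The libraries of neighbours in the order also overlapped from EIF4G2 to EIF4EBP1, to EIF4G1 and to EIF4H. Subunits of a complex with equal copies did not have equal transcript levels: EIF2S2 had 92.1 FPKM, EIF2S1 31.2 and EIF2S3 29.4. These orders depend on the gene length that the authors used. That length, implied by reads and FPKM, was over 2 times the longest annotated transcript for 18 of the 51 genes and 22.2 times for EIF3E, which makes the FPKM of EIF3E (8.61) too low to compare with other subunits. The length was also 5.23 times the longest transcript for EIF2AK3, so the low place of EIF2AK3 in the order is uncertain. Comparisons between groups within a gene do not depend on this length.

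**Figure D4:**
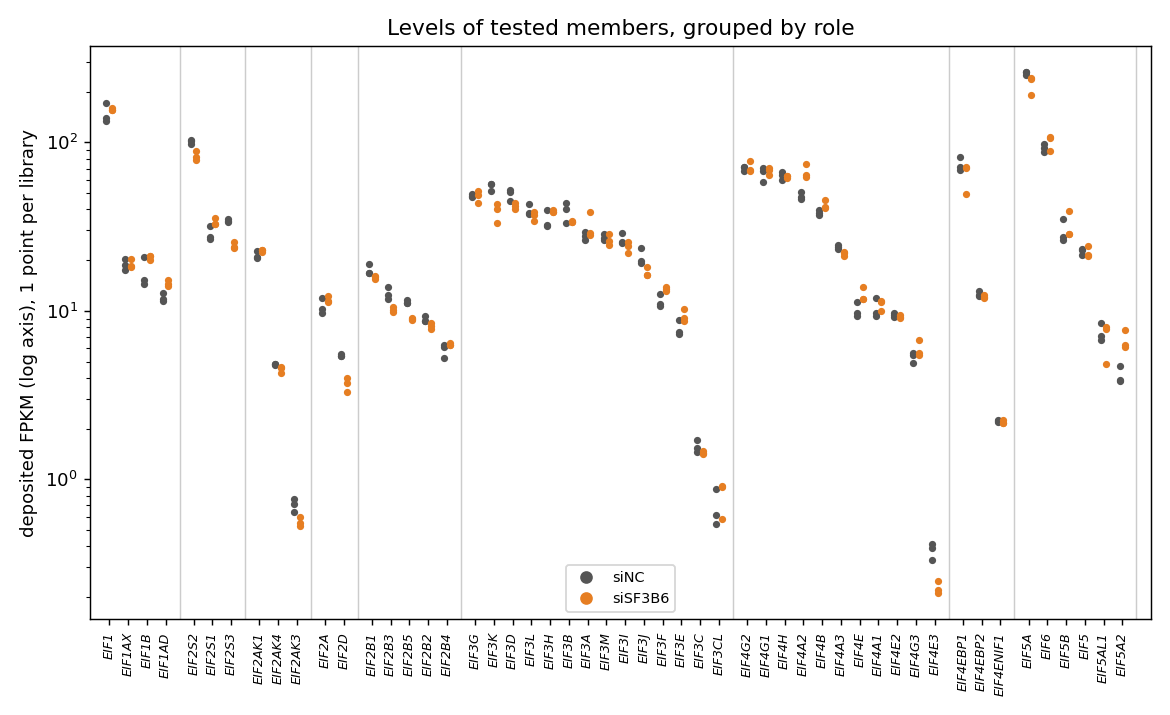
Deposited FPKM of the 51 tested genes on a log axis, 1 point per library, with siNC in grey and siSF3B6 in orange and the genes ordered by mean FPKM within each role. The range between genes, from 0.302 to 241 FPKM, is far wider than the difference between groups for any of them.

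The changes had a weak negative correlation with transcript GC content, and the genes called lower did not have the highest median GC content. Over the 51 genes the log2 fold change had a Spearman correlation of -0.27 with the GC content of the longest transcript, against -0.34 over 16675 tested genes, as a description of genes that share the same 6 libraries. The 8 genes called higher had a median GC content of 39.1%, the 9 called lower 44.4% and the 34 not called 46.8%. EIF5A2 had the lowest GC content of the tested factors, 34.3%. Which transcript of a gene was expressed was not examined, and it need not be the longest. The longest of EIF4A2 had 5327 bases in 4 exons and that of EIF2D 5224 in 4. With an edgeR offset that takes out GC content and length, the correlation over all genes, to which it was fitted, was 0.01. Over the 51 factor genes the Spearman correlation with GC content was then 0.24, against -0.27 without the offset. In that fit 9 factor genes were called higher and 13 lower, or 43.1%, against 46.4% of all genes. EIF5A2 (0.50, adjusted p = 3.63e-05) and EIF4E (0.16, adjusted p = 0.0354) stayed called with smaller changes, as did EIF4A2 (0.32, adjusted p = 0.00104). EIF2S1 (0.10, adjusted p = 0.157), EIF3E (0.13, 0.0649) and EIF3F (0.12, 0.205) lost their calls.

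The falls of EIF4E3 (-0.87), EIF2D (-0.63), EIF2S3 (-0.56) and EIF3J (-0.41) were larger with the offset. The offset also brought in EIF6 (0.34, adjusted p = 0.000494), EIF3G (0.26, 0.00175), EIF4G1 (0.22, 0.0108) and EIF2B4 (0.19, 0.0408) as higher. EIF3M (-0.20, adjusted p = 0.0188), EIF1AX (-0.16, 0.0233), EIF4A3 (-0.15, 0.0446) and EIF5 (-0.13, 0.0437) were lower with it. Of these, EIF3M, EIF1AX and EIF5 had a positive log2 fold change without the offset. No called gene changed direction in any of the 21 alternatives. With siNC replicate 3 as the lone control, 6 of the 17 stayed called: EIF5A2 and EIF4A2 higher, and EIF4E3, EIF2D, EIF3J and EIF2S3 lower. In that fit EIF1B had 0.05, EIF2S1 0.15, EIF3E 0.13 and EIF3F 0.16.

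**Figure D5:**
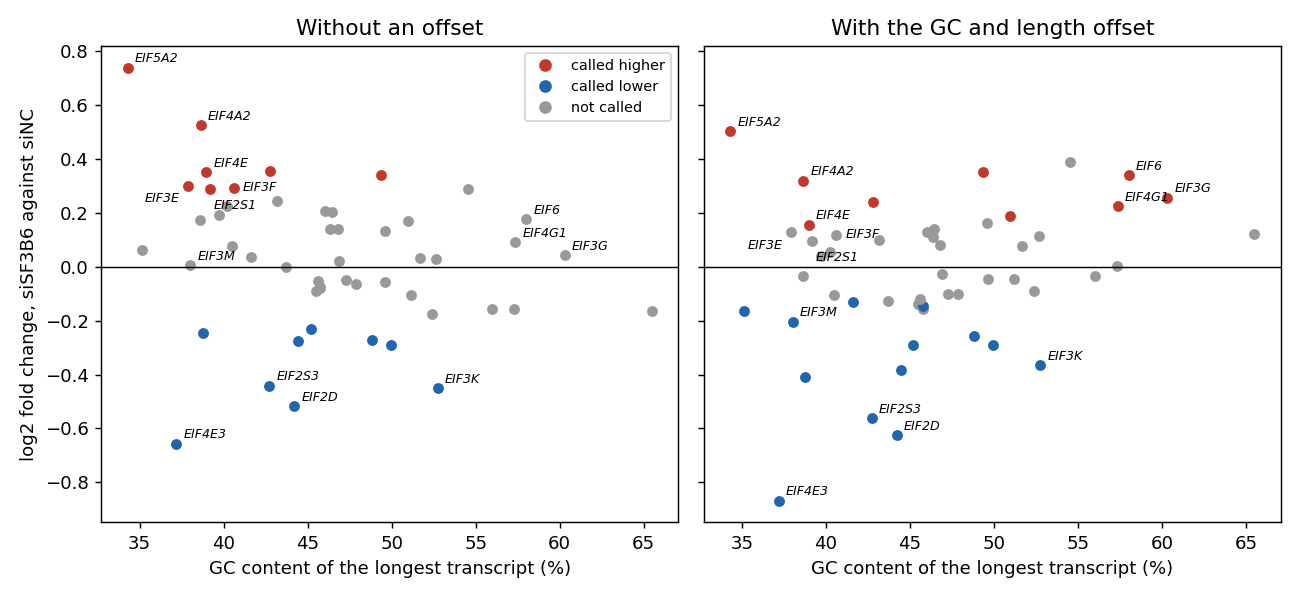
Log2 fold change of the 51 genes against the GC content of their longest transcript, without an offset (left) and with that offset (right), coloured by whether the gene was called. On the left 7 of the 8 genes called higher lie at 34.3% to 42.8% GC, and on the right EIF6, EIF4G1 and EIF3G, at 57.4% to 60.3%, are called higher too.

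Regulators of initiation outside the EIF symbols, a list of 40 tested genes written from general knowledge, had 11 called higher and 9 lower. That is 50%, against 40.8% of all genes tested, 45.7% of the protein-coding genes and 50.2% of those in the factors' range of read counts. Their median log2 fold change was 0.01. RPTOR, the scaffold by which mTORC1 finds the eIF4E-binding proteins, had 50.5, 49.7 and 45.0 CPM in siNC and 33.7, 33.5 and 27.6 in siSF3B6. It fell by a log2 fold change of -0.61 (adjusted p = 0.000271, SE 0.0965), while MTOR had 0.01 (adjusted p = 0.954). Of further mTOR pathway genes on the list, MLST8 (-0.38, adjusted p = 0.0261) and TSC2 (-0.32, 0.014) were called lower. RPS6KB1 (0.38, adjusted p = 0.0113) was called higher, and AKT1S1, DEPTOR, RHEB, RPS6KB2 and TSC1 were not called. PAIP1, which links the poly(A)-binding protein to eIF4A and eIF3, rose by 0.52 (adjusted p = 0.000574, SE 0.0913), from 83.8 to 120.5 CPM in the mean. ZNF598, a ubiquitin ligase of collided ribosomes, fell by a log2 fold change of -0.51 (adjusted p = 0.00223, SE 0.109). MKNK1, a kinase of eIF4E, had -0.40 (adjusted p = 0.00332) and its relative MKNK2 0.12 (adjusted p = 0.364). MTOR, the further mTOR pathway genes and the MKNK genes were outside the rule for named genes. They were chosen for their part in the control of eIF4E or of mTORC1. Values for this list and the lists below come from the edgeR fit of all 6 libraries without an offset. The alternative analyses were not examined for these lists.

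Factors of elongation and termination had 4 called higher and 5 lower among 19 tested. That is 47.4%, against 40.8% of all genes, 45.7% of the protein-coding genes and 50.2% of those in the factors' range of read counts. DOHH, the hydroxylase that completes hypusine on eIF5A and eIF5A2, had 30.2, 30.3 and 23.9 CPM in siNC and 13.8, 14.4 and 10.99 in siSF3B6. Its log2 fold change of -1.11 (adjusted p = 2.12e-05, SE 0.122) was opposite in sign to that of EIF5A2, and DHPS, the enzyme before it, had -0.07 (adjusted p = 0.766) at under 5 CPM. GSPT2, a paralogue of the release factor GSPT1, rose by 0.78 (adjusted p = 0.000384), and EEFSEC, the elongation factor of selenocysteine, had -0.70 (adjusted p = 0.000268). DHPS was outside the naming rule and was chosen for its place beside DOHH.

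Translation of ATF4 mRNA rises when eIF2 alpha is phosphorylated, so the known targets of ATF4 were listed beside the kinases. Of 19 genes tested in this list, which held ATF4 itself, 6 were called higher and 4 lower. The median log2 fold change of 0.13 was the value of ATF4. The targets nearest to it were SLC3A2 (0.15) above and TRIB3 (-0.10) below. That is 52.6%, against 40.8% of all genes, 45.7% of the protein-coding genes and 50.2% of those in the factors' range of read counts. DDIT4, an inhibitor of mTORC1, rose from 371 to 617 CPM (log2 fold change 0.73, adjusted p = 4.03e-05) and CTH, of cysteine synthesis, rose by 0.64 (adjusted p = 0.00119), while PHGDH, of serine synthesis, had -0.88 (adjusted p = 0.000693). The other targets called higher were SLC7A11 (0.51), VLDLR (0.39), ATF3 (0.37) and SESN2 (0.36). The others called lower were ATF5 (-0.61), ASNS (-0.35) and MTHFD2 (-0.28). ATF4 itself had 0.13 (adjusted p = 0.201), DDIT3 0.21 (0.062) and TRIB3 -0.10 (0.518). These other targets, ATF4, SLC3A2, DDIT3 and TRIB3 were named outside the rule. Of 77 cytosolic ribosomal protein genes 13 were called, or 16.9% against the same 40.8%, with 5 higher and 8 lower. Of 18 aminoacyl-tRNA synthetase genes 3 were higher and 3 lower, or 33.3%. Among ribosomal protein genes RPS10 (1.77), RPL39 (0.76) and RPL37 (0.53) had the largest called changes. RPS10 had few reads, with a mean of 2.71 CPM in siNC and 9.32 in siSF3B6. The groups of RPL37 overlapped, with 707 CPM in siNC replicate 3 and 636 in siSF3B6 replicate 3. RPL39 had 396 CPM in siNC replicate 3, far above the 166 and 179 of the other siNC libraries and close to the 408 to 439 of siSF3B6. Among synthetase genes VARS1 fell by a log2 fold change of -0.56, and AARS1 and GARS1 rose by 0.30 and 0.29 (adjusted p = 0.000648, 0.00501 and 0.0062).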

How the data were processed

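Polyadenylated RNA was sequenced in 6 libraries of MDA-MB-231 cells, 3 with siSF3B6 and 3 with siNC, in a strand-specific way by dUTP marking, per the labels' protocols. Groups and replicate numbers come from the sample titles. The cell line field differs from the titles in that its last number goes up by 1 from sample to sample, and it was not used. The authors deposited whole-number read counts for each gene, not normalized. The authors also deposited FPKM values with 2 decimals. HISAT2, DESeq2 and hg38 are named per the submitters' processing notes. Which counter and annotation were used, and whether strand was, is not given in the sources used here. Overlapping or antisense genes can thus share reads.

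The whole count table was tested with edgeR 4.0.16 in R 4.3.3 (filterByExpr, TMM, glmQLFit, glmQLFTest), siSF3B6 against siNC without a block. The Benjamini-Hochberg adjustment covered every gene tested, and 0.05 was the threshold. Each standard error (SE) was derived from the F statistic and the log2 fold change. CPM are computed with the TMM factors. GENCODE 29 on GRCh38, not stated to be the authors' annotation, gave positions, overlaps, GC content and shared 75-base words. Promoters are from RefSeq (GRCh38.p14). The fit was also run on simulated counts, drawn as independent libraries with the spread estimated from these data. Such counts cannot show how the test behaves with replicates as uneven as these.

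Values per library are given for the 12 called members of largest change at a mean of at least 5 CPM, the member of largest called change and of highest FPKM in each role, members of the ratio pairs, and up to 3 called genes of each further list. The members and lists were chosen with earlier results of these data known. Alternatives in normalization and test were DESeq2 1.42.0, voom in limma 3.58.1, RLE factors, scaling by library size, robust dispersion and the replicate number as a block. Alternatives in filter and unit were no count filter, a minimum of 1 CPM in 3 libraries, limma on log2(FPKM + 1) with or without a minimum mean of 0.5 FPKM, and on log2(FPKM + 0.1) with it. Further ones were a lowess offset (span 0.3) for GC content and length, and leaving out mitochondrial genes, each library or both libraries numbered 3. The final one took siNC replicate 3 as the lone control, assumed to vary like the siSF3B6 libraries. These made 21 in all.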

Additional observations from a re-analysis of the deposited data

How the results depend on the processing

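Against 8 members called higher and 9 lower, library size only gave 4 higher. The replicate block gave 13 higher and 10 lower, log2(FPKM + 1) 5 higher, log2(FPKM + 0.1) 5 higher, and log2(FPKM + 1) without a filter 3 higher and 5 lower. Without both libraries numbered 3, 21 members were called higher and 13 lower (66.7%, against 55.6% of all genes), from close pairs whose p-values measure a narrower spread. With siNC replicate 3 as the lone control, 2 were higher and 4 lower (11.8%, against 13.8% of all genes). Leaving out 1 library gave 3 to 12 higher and 5 to 9 lower, with fewest higher without siNC replicate 2 (3) and siNC replicate 1 (4) and fewest lower without siSF3B6 replicate 1 (5). The other alternatives stayed within 1.5 times both counts. The cause was not tested. With siNC replicate 3 as the lone control 11 of the 17 calls were lost: EIF1AD, EIF1B, EIF2AK3, EIF2B3, EIF2B5, EIF2S1, EIF2S2, EIF3E, EIF3F, EIF3K and EIF4E. Under the offset for GC content and length 3 were lost: EIF2S1, EIF3E and EIF3F. Under other settings that kept all libraries, calls lost were EIF1B, EIF2S1 and EIF3E with library size only and on both filtered FPKM scales, EIF3F with library size only, EIF2AK3 on those FPKM scales, in DESeq2 and without a count filter, EIF2S2 without a count filter and EIF3J without mitochondrial genes. On log2(FPKM + 1) without a filter 9 calls were lost, EIF4E and EIF4E3 among them.

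Of the members not called, 4 passed the threshold under an alternative with the opposite sign: EIF1AX (-0.16), EIF3M (-0.20) and EIF5 (-0.13) with the offset for GC content and length, and EIF5AL1 (0.24) without both libraries numbered 3. The log2 ratio difference of EIF4G3 to EIF4G1 ran from -0.02 (-0.019, without siSF3B6 replicate 3) to 0.22 when 1 library was left out. Same-numbered libraries had correlations of 0.04, 0.11 and 0.14 between deviations from their group means, so the numbers were not taken to pair the samples, although each library correlated best with its own number. The replicate block lost none of the 17 calls.

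With 3 libraries a group, the exact test of a ratio cannot go below p = 0.1. The members not tested had at most 4 reads in a library, so no change in them was detectable at this depth.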
